A study of Mus musculus with 2 samples.

Results

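The genes described here are regulators of pre-mRNA splicing in hair follicle stem cells, the long-lived cells of the follicle bulge. They were chosen by name: every numbered Srsf gene, every Hnrnp gene from A to U that is not a pseudogene, and the genes Esrp1, Esrp2, Rbfox1, Rbfox2, Ptbp1, Ptbp2, Ptbp3, Mbnl1, Mbnl2, Tra2a and Tra2b. The rule found 42 genes among the 42392 gene IDs of the table, of which 11 are Srsf genes, 20 are Hnrnp genes and 11 are the other factors. All 42 are annotated as protein-coding. The rule uses names only, though the gene set was proposed with earlier results of these data known.

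The values come from 1 RNA-seq library of hair follicle stem cells in anagen II-III, the early growth phase of the follicle. The cells were sorted from the skin of female mice of genotype K15-CrePGR; Shh+/-, whose Cre, joined to a progesterone receptor and active in keratin 15 expressing cells, needs the ligand RU486, which was given for 8 days. The title calls the sample a control, and the second sample of the series, in telogen, has the same genotype and treatment. The telogen library was not analysed here, because no column of the table carries a label of that sample alone, so no stages were compared. The number of animals behind the library and their age are not stated in the labels. With 1 library, no value carries a replicate error and nothing could be tested over animals. TPM, a length-scaled measure of transcript abundance, divides by transcript length. Levels of different genes within the library can thus be set side by side, but the read depth behind them is unknown.

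Splicing removes introns from a pre-mRNA, and its regulators decide which exons are kept. SR proteins carry a domain rich in arginine and serine, bind exons and mostly promote their inclusion, while hnRNPs coat nascent RNA and often act as silencers. Esrp1 and Esrp2 encode the epithelial splicing regulatory proteins, which switch transcripts such as Fgfr2 and Cd44 to their epithelial forms, and mice that lack both have a defective epidermal barrier. Many genes of SR proteins and hnRNPs make a second, unproductive transcript through a conserved alternative exon, which limits their own output. Gene-level TPM adds productive and unproductive transcripts, so it measures neither the protein nor which exons were used.

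The sorted cells carried markers of the labelled cell type, beside some of other cells. All 8 bulge markers fixed for this check were above 10 TPM, from Krt15 at 3364 TPM to Nfatc1 at 16.1 TPM, and summed to 3935 TPM. The 5 basal keratinocyte markers summed to 5931 TPM, from Krt5 at 3833 TPM to Itgb4 at 72.8 TPM. How much came from basal cells outside the bulge was not tested. Of the 4 epithelial markers, Cdh1 and Epcam stood at 77.6 and 49.5 TPM, and Cldn4 and Krt18 at 7.09 and 2.42 TPM. Of 9 mesenchymal markers, 8 reached 1 TPM, and the 9 together summed to 675 TPM, led by Col1a1 at 278 TPM and Col1a2 at 237 TPM, whereas Pdgfra stood at 1.44 TPM and Zeb1 was lowest at 0.420 TPM. The melanocyte markers summed to 43.7 TPM, the leukocyte markers to 23.8 TPM, the neuron, Schwann and Merkel cell markers to 17.5 TPM, the endothelial markers to 8.76 TPM and the muscle markers to 1.43 TPM. Snap25, a defining gene of neurons, was listed at 0. In a bulk library, fewer cells of a type and less RNA per cell cannot be told apart, and the part of these other cells in the levels below was not tested.

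Splicing regulators were present at high levels, with few exceptions. Of the 42 genes, 41 reached 1 TPM (97.6%), against 56.0% of the 20767 nuclear protein-coding genes in the table. At 10 TPM or more stood 40 of the 42 genes (95.2%), against 31.8% of protein-coding genes. At 100 TPM or more stood 18 of the 42 genes (42.9%), against 3.47% of protein-coding genes. The median of the 42 genes was 73.4 TPM, and the median of the 11626 protein-coding genes at 1 TPM or more was 12.5 TPM. Above 12.5 TPM stood 38 of the 42 genes (90.5%), against 28.0% of all protein-coding genes in the table. The 4 genes at or below it were Ptbp2, Rbfox2, Srsf12 and Rbfox1. These shares describe well-known, broadly used genes in 1 library, and whether other cell types would give the same shares was not tested.

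**Figure D1:**
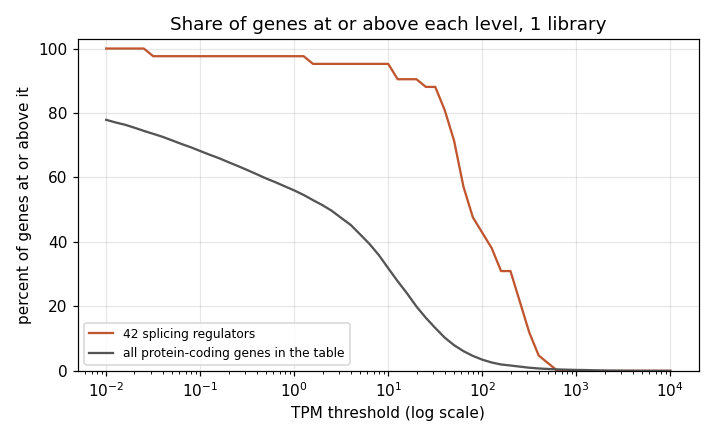
Percent of genes at or above each TPM threshold (log scale) in the anagen library, for the 42 splicing regulators and for all 20767 protein-coding genes. At 100 TPM the curve of the splicing regulators is at 42.9% and that of protein-coding genes at 3.47%.

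The highest of the 42 genes was Hnrnph1 at 611 TPM, which ranked 99th among protein-coding genes, and the lowest was Rbfox1 at 0.0300 TPM. Genes annotated as nuclear protein-coding held 47.8% of all TPM of the library. The 42 genes together summed to 5912 TPM, which is 1.24% of the TPM of nuclear protein-coding genes and 0.591% of all TPM. This sum was uneven, since 9 genes held 53.7% of it. In order of level these were Hnrnph1, Hnrnpk, Hnrnpa1, Hnrnpa2b1, Hnrnpa3, Ptbp1, Hnrnpf, Hnrnpab and Srsf5. Hnrnp genes held 65.5% of the sum, Srsf genes 22.8% and the other 11 factors 11.7%. The median was 134 TPM for the 20 Hnrnp genes, 90.4 TPM for the 11 Srsf genes and 49.9 TPM for the other factors.

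**Figure D2:**
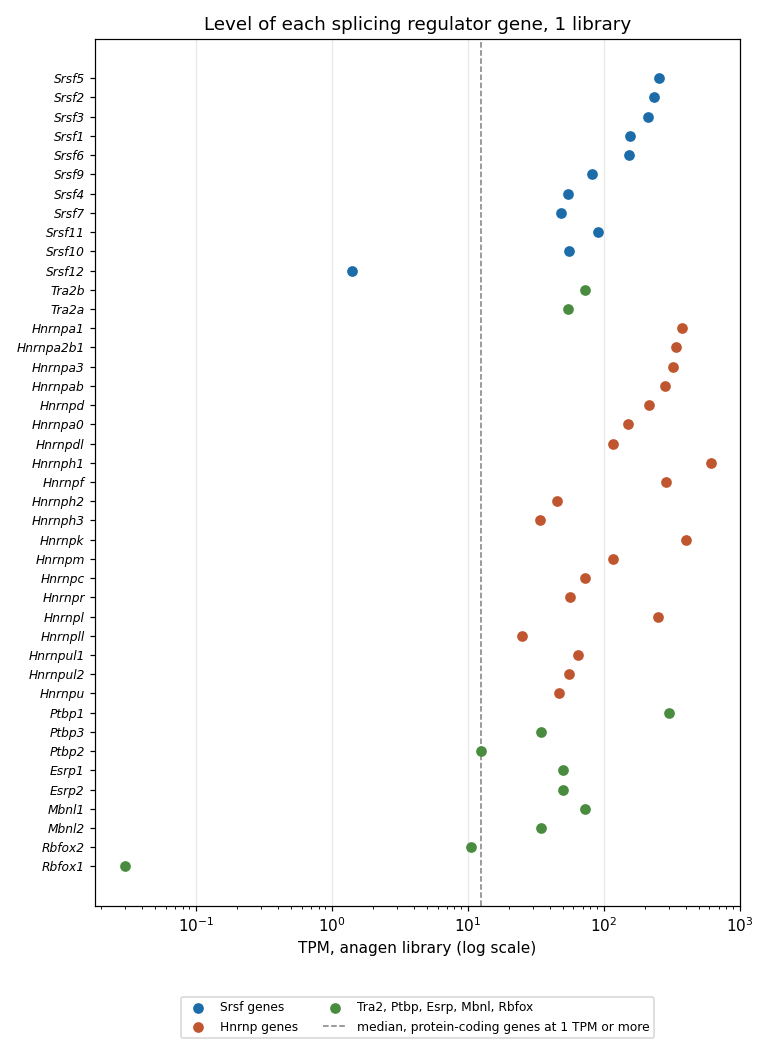
TPM of each of the 42 genes in the anagen library (log scale), 1 point a gene, grouped by subgroup and coloured by family. The dashed line is the median of protein-coding genes at 1 TPM or more, 12.5 TPM. All Hnrnp genes lie right of the line, and Srsf12, Ptbp2, Rbfox2 and Rbfox1 lie at or left of it.

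Promoter sequences were available for 36 of the 42 genes, in 50 entries of 300 bases each, from RefSeq on build GRCm38.p6. Esrp1, Esrp2, Hnrnpll, Hnrnpul2, Ptbp3 and Rbfox2 had no entry. The 150 bases before the annotated start are shown for 4 genes above 150 TPM and for Rbfox1, the lowest gene, each with an entry that begins at the outer end of the gene. They are Ptbp1 (chr10:79854282-79854431, plus strand), Hnrnpab (chr11:51606882-51607031, minus strand), Srsf3 (chr17:29032510-29032659, plus strand), Srsf6 (chr2:162931358-162931507, plus strand) and Rbfox1 (chr16:5884643-5884792, plus strand). Each is written 5′ to 3′ on the strand of its gene, and capitals mark every match, on either strand, to the 9 motifs searched.
Ptbp1: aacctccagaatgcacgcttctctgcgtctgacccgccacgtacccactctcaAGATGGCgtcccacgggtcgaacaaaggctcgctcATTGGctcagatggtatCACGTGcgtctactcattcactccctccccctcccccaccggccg
Hnrnpab: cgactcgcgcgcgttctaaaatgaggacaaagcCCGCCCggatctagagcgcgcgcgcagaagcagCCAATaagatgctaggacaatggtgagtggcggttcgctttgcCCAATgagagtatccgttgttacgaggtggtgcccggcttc
Srsf3: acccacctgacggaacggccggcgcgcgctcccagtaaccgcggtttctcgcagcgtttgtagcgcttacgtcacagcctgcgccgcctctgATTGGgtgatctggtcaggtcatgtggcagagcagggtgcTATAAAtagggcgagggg
Srsf6: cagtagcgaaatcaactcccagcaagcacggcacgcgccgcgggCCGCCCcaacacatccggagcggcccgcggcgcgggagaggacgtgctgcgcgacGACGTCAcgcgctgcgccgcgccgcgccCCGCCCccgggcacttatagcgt
Rbfox1: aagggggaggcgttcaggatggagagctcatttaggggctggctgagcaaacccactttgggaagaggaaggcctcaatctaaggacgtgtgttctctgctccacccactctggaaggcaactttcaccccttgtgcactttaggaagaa

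In these stretches the promoter of Srsf6, a gene at 154 TPM, held 28 CpG sites. That of Hnrnpab, at 281 TPM, held 16 sites, that of Srsf3, at 213 TPM, held 15 and that of Ptbp1, at 300.5 TPM, held 12. The promoter of Rbfox1, the lowest gene, held 2. These genes are examples and do not show that CpG count follows level. Over the full 300 bases, Srsf12 at 1.41 TPM held 26 sites and Hnrnpa1 at 375 TPM held 16, whereas this Rbfox1 entry held 3. The Srsf3 stretch has a TATA box (TATAAA) that begins 18 bases before the start and an inverted CCAAT box 58 bases before it. The Hnrnpab stretch has CCAAT boxes that begin 84 and 41 bases before the start. The Srsf6 stretch has an inverted cyclic AMP response motif 51 bases before the start, between 2 inverted GC boxes. The Ptbp1 stretch has an E-box (CACGTG), an inverted CCAAT box and the YY1 motif AGATGGC. No motif was matched in the Rbfox1 stretch.

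Over all 50 entries the promoters of the splicing regulators were rich in CpG. Their median was 27.5 CpG sites and a GC content of 65.7%, against 20 sites and 61% in 11981 entries of protein-coding genes at 1 TPM or more. Over all 32851 entries the median was 7 sites. The GC box GGGCGG, which Sp1 binds, was in 80% of entries of the splicing regulators, against 63.4% for protein-coding genes at 1 TPM or more and 35.7% of all entries. The CCAAT box stood in 50% of them, against 38.0% and 37.4%. The ETS motif CCGGAAG stood in 20%, against 17.6% and 8.86%. Its entries belonged to Hnrnpd, Hnrnpf, Srsf4, Srsf5, Srsf7 and Srsf11, and those of Hnrnpf, Srsf4 and Srsf11 counted more than once. TATAAA stood in 10%, against 7.04% and 13.6%, and its 5 genes were Srsf2, Srsf3, Hnrnpab, Hnrnpm and Mbnl1. The other motifs were in 7 entries or fewer. CACGTG stood in 14%, against 9.93% and 7.15%, and GCATGCG, of NRF1, in 10%, against 6.39% and 3.58%. TGACGTC, part of the cyclic AMP response motif, stood in 8%, against 5.28% and 3.21%, and AGATGGC in 4%, against 7.14% and 6.40%. TGATGCA, part of the amino acid response element that ATF4 binds, was in 1 entry (2%), an inner start of Rbfox1, against 1.90% and 3.15%. These are shares of entries and not of genes, and overlapping entries of the same gene, such as those of Srsf4, are counted separately. Both strands were searched over the 300 bases, motifs may overlap, and a match is a run of letters and not a measured site. Across the 36 genes, the highest CpG count of a gene's entries and its TPM had a Spearman rho of 0.16 in this library.

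The classical SR protein genes were all above 40 TPM. Srsf5, known in rat liver as a gene induced by growth stimuli, was the highest Srsf gene at 255 TPM. Srsf2, the nuclear speckle protein SC35, stood at 233 TPM. Srsf3, the smallest SR protein and an adaptor for mRNA export, stood at 213 TPM. Srsf1, the founding member of the family and a proto-oncogene, stood at 156 TPM. Srsf6, whose excess in mouse skin leads to overgrowth of the epidermis, stood at 154 TPM. The lower members were Srsf9, a close relative of Srsf1, at 82.6 TPM, Srsf4 at 54.7 TPM and Srsf7 at 49.0 TPM. The 8 genes spanned a range of 5.21-fold and held 20.3% of the summed level.

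Within this group, close relatives were unequal. Srsf3 was 4.35-fold above Srsf7, a relative of it that also carries a zinc knuckle. Srsf4, Srsf5 and Srsf6 form a further related set, in which Srsf5 was 4.66-fold and Srsf6 2.82-fold above Srsf4. Srsf1 was 1.89-fold above Srsf9. These are ratios of TPM within 1 library, and no error can be given for them.

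The remaining Srsf genes and the Tra2 genes overlapped the lower classical SR genes, except Srsf12. Srsf11, a larger SR-related protein, stood at 90.4 TPM, and Srsf10, which represses splicing when it loses its phosphate groups, at 56.0 TPM. Srsf12, a relative of Srsf10, stood at 1.41 TPM and was the only Srsf gene under 10 TPM. Srsf10 was thus 39.9-fold above Srsf12, or 23.7-fold with 1 TPM added to both genes. Without Srsf12 the Srsf median was 122 TPM, against 90.4 TPM with it. Tra2b and Tra2a, which encode SR-like activators of exons with GAA repeats, stood at 72.6 and 54.3 TPM, a ratio of 1.34.

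The hnRNP A, B and D genes were the most abundant subgroup. All 7 were above 100 TPM, their median was 281 TPM, and they held 30.5% of the summed level of the 42 genes. Hnrnpa1 and Hnrnpa2b1, which silence exons and shuttle between nucleus and cytoplasm, stood at 375 and 338 TPM, and Hnrnpa3 at 325 TPM. Hnrnpa1 was 1.11-fold above Hnrnpa2b1 and 1.15-fold above Hnrnpa3, so the 3 genes lay within 1.15-fold of each other. Hnrnpab stood at 281 TPM and Hnrnpd, the AU-rich element binding protein AUF1, at 214 TPM. Hnrnpa0, which has a single coding exon, stood at 150.4 TPM. Hnrnpdl, a relative of Hnrnpd, was lowest of the 7 at 118 TPM. The table's pseudogene-like rows for this family were low, at 0.590 TPM for Hnrnpa1l2-ps2 and 0.155 TPM for Hnrnpa1l2-ps. Other processed copies of hnRNP and SR genes exist, so the split of reads between near-identical copies is uncertain.

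**Figure D3:**
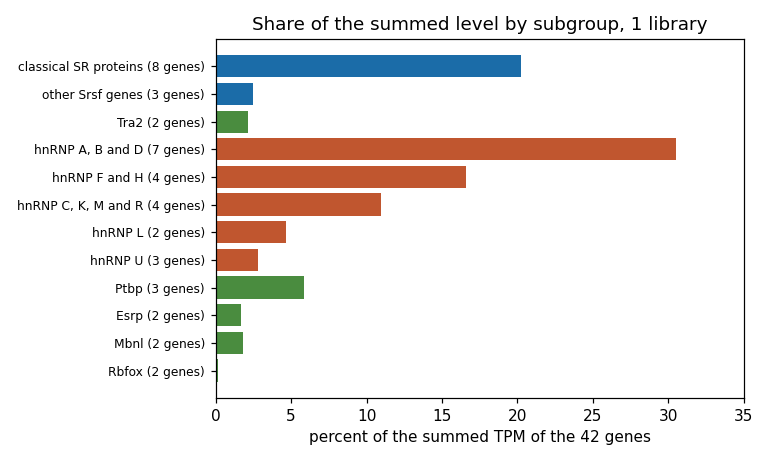
Share of the summed TPM of the 42 genes held by each subgroup in the anagen library, in percent, with the number of genes in brackets. Bars are blue for Srsf genes, red for Hnrnp genes and green for the other factors. The 7 hnRNP A, B and D genes hold 30.5%, the 8 classical SR genes 20.3% and the 4 hnRNP F and H genes 16.6%.

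The hnRNP F and H genes, whose proteins bind runs of G, differed widely. Hnrnph1 stood at 611 TPM (ENSMUSG00000007850, chr11:50375257-50386528, GRCm38), the highest of all 42 genes. Hnrnpf stood at 290 TPM. Hnrnph2 on the X chromosome and Hnrnph3 stood at 45.6 and 34.3 TPM. Hnrnph1 was 13.4-fold above Hnrnph2, 2.11-fold above Hnrnpf and 17.8-fold above Hnrnph3. The proteins of Hnrnph1 and Hnrnph2 are very similar, so reads shared between the genes may be split uncertainly.

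Among the other hnRNP genes, Hnrnpk and Hnrnpl were high. Hnrnpk, which binds runs of C, stood at 402 TPM and ranked 148th among protein-coding genes. Hnrnpl, which binds CA repeats, stood at 251 TPM, 10.02-fold above its relative Hnrnpll at 25.0 TPM. Hnrnpll, known for CD45 splicing in lymphocytes, was the lowest of the 20 Hnrnp genes, and the leukocyte gene Ptprc, which encodes CD45, stood at 0.264 TPM. Hnrnpm, which in human cells opposes ESRP proteins on shared exons, stood at 116 TPM. Hnrnpc, which binds U tracts and limits the use of cryptic exons, stood at 73.5 TPM. Hnrnpr stood at 56.6 TPM, and its relative Syncrip at 72.8 TPM. The 3 hnRNP U genes lay within 1.38-fold of each other, with Hnrnpul1 at 64.4 TPM, Hnrnpul2 at 56.0 TPM and Hnrnpu, a chromatin-bound scaffold protein, at 46.7 TPM.

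Hnrnpk also holds a microRNA gene. The hairpin of miR-7-1 lies within Hnrnpk on the same strand (chr13:58392779-58392886, GRCm38.p6), and Ptbp1 holds the hairpin of miR-6910 (chr10:79862587-79862652). The mature sequences are shown because each lies inside its host gene, with the seed, bases 2 to 8, in capitals. The mRNA library does not measure mature microRNAs, so no level is given for them.
mmu-miR-7a-5p: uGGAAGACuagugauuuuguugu
mmu-miR-7a-1-3p: cAACAAAUcacagucugccaua
mmu-miR-6910-5p: uGGGGGUAgggcaccagugggca
mmu-miR-6910-3p: uCAUGGUUuccacccuuugucc
The 4 seeds differ from each other.

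The 2 epithelial splicing regulators had nearly equal TPM. Esrp1 stood at 50.4 TPM (ENSMUSG00000040728, chr4:11331933-11386783) and Esrp2 at 49.9 TPM (ENSMUSG00000084128, chr8:106130319-106137193), a ratio of 1.01. They ranked 1647th and 1663rd among protein-coding genes, below most SR and hnRNP genes. Rbm47, another splicing regulator of epithelial cells, was lower at 2.31 TPM, so Esrp1 was 21.8-fold above it. All 12 listed genes known for ESRP-regulated exons were above 10 TPM, and their median was 24.7 TPM. Fgfr2 at 112 TPM, Enah at 109 TPM, Ctnnd1 at 67.2 TPM and Cd44 at 64.7 TPM were highest, and Magi1 and Arhgef11 lowest at 14.2 and 11.8 TPM. Which of their exons were spliced in cannot be read from gene-level values.

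The PTB genes, whose proteins bind pyrimidine tracts and repress exons, were led by the broadly expressed member. Ptbp1 stood at 300.5 TPM (ENSMUSG00000006498, chr10:79854432-79864435). Ptbp3 stood at 34.3 TPM and Ptbp2, the neuronal member, at 12.5 TPM. Ptbp1 was 24.1-fold above Ptbp2 and 8.75-fold above Ptbp3. In other cells Ptbp1 is known to repress Ptbp2 by skipping of an exon. The level of Ptbp2 was about the median of protein-coding genes at 1 TPM or more, 12.5 TPM. Whether Ptbp1 represses it in these cells was not tested.

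The MBNL and RBFOX genes, known for roles in the differentiation of muscle and neurons, differed from each other. Mbnl1 and Mbnl2 stood at 73.4 and 34.8 TPM, a ratio of 2.11, while their relative Mbnl3 stood at 2.48 TPM. Rbfox2, which binds UGCAUG and is the broadly expressed member, stood at 10.5 TPM. Rbfox1 stood at 0.0300 TPM, and the neuronal Rbfox3 at 0.185 TPM. The Rbfox2 value was 349.7-fold that of Rbfox1, a ratio that rests on a value near 0 and was 11.2 with 1 TPM added to both genes. Mesenchymal cells also express Mbnl1, Mbnl2 and Rbfox2, and the fibroblast markers given above were present. Their part in these levels was not tested.

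**Figure D4:**
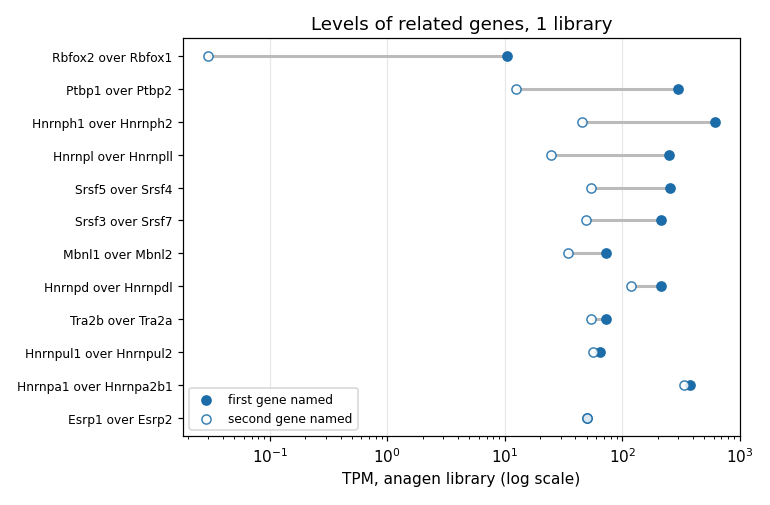
TPM (log scale) of 12 sets of related genes in the anagen library, with the first gene named as a filled point and the other as an open one, ordered by their ratio. Rbfox2 over Rbfox1 is widest at 349.7-fold and Esrp1 over Esrp2 narrowest at 1.01-fold.

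The genes at 100 TPM or more had a shorter median span than the others. The 18 genes at 100 TPM or more had a median genomic span of 9.81 kb, and the 22 between 10 and 100 TPM one of 27.0 kb. The 11626 protein-coding genes at 1 TPM or more had a median of 23.1 kb. No span was computed for other protein-coding genes at 100 TPM or more, so whether they are as short was not tested. The shortest was Hnrnpa0 at 2.68 kb, and the longest was Rbfox1 at 1528 kb, followed by Rbfox2 at 229 kb, Mbnl1 at 157 kb and Mbnl2 at 156 kb. Across the 42 genes, span and TPM had a Spearman rho of -0.50, given as a description of genes that share a library. The genes lay on 18 chromosomes, with 6 on chromosome 4. Hnrnpd and Hnrnpdl are the closest of the 42 genes, 54.4 kb apart on chromosome 5. Next are Hnrnpll and Srsf7, 138 kb apart on chromosome 17.

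Of the 36 genes with a promoter entry, 12 (33.3%) had a start of another gene on the opposite strand within 1000 bases, against 23.8% of 9375 protein-coding genes at 1 TPM or more. The paralogs Hnrnpa1 and Hnrnpa2b1 each had a gene of a heterochromatin protein as this partner. Distances are from the start of a promoter entry, which for some genes, such as Hnrnpa1 and Srsf2, lies inside the outer end of the gene. Cbx5 starts 545 bases from Hnrnpa1 and stood at 28.4 TPM, and Cbx3 starts 722 bases from Hnrnpa2b1 and stood at 124 TPM. Hnrnpa1 was 13.2-fold above Cbx5, and Hnrnpa2b1 was 2.72-fold above Cbx3. Rmi1, 131 bases from Hnrnpk, stood at 4.45 TPM, 90.3-fold below it. Lrrc40, 76 bases from Srsf11, stood at 14.8 TPM, and Mfsd11, 668 bases from Srsf2, at 15.6 TPM. For Hnrnpd and Hnrnpf the opposite transcript begins 3 and 401 bases from a start of the gene and overlaps that start. These opposite transcripts stood at 4.15 and 1.65 TPM. Rmi1 also begins within the annotated span of Hnrnpk, since the Hnrnpk entry starts inside the outer end of the gene. Strand-specific counting is not given in the sources used here, so reads within these shared stretches cannot be told apart by strand.

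The enzymes that act on these proteins were present at moderate levels. Of 12 SR protein kinase and phosphatase genes, 11 reached 10 TPM, and the median of the list was 24.9 TPM. Ppp1ca and Ppp1cb, catalytic subunits of protein phosphatase 1, stood at 260 and 80.2 TPM. Clk1, a nuclear kinase that releases SR proteins from speckles, stood at 117 TPM, 3.57-fold above Clk4 and 8.23-fold above Clk3. Srpk1, the cytoplasmic SR protein kinase, stood at 24.4 TPM and Srpk2 at 12.8 TPM, whereas Srpk3, a muscle member, was lowest at 0.0198 TPM. Among import receptors and arginine methyltransferases, 7 of 8 listed genes were measured, and 1 was not analysed here. Tnpo3, which imports SR proteins, stood at 34.0 TPM and Tnpo1, which imports hnRNP A1, at 18.6 TPM.

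Related RNA-binding proteins outside the rule ranged as widely. Of 20 hnRNP-type genes under other names, 19 reached 1 TPM. The median of the 20 was 68.4 TPM, beside 73.4 TPM for the 42 genes. Ewsr1 at 265 TPM, Tardbp at 258 TPM and the cold-inducible Rbm3 at 220 TPM were among the highest, and Ralyl was listed at 0. Of 23 SR-related genes, 22 reached 1 TPM, and the median was 46.4 TPM. Rsrp1 at 209 TPM and the speckle scaffold gene Srrm2 at 127 TPM were highest, and Srrm4, a neuronal activator of microexons, and Srrm3 were lowest at 1.52 and 0.0842 TPM. Of 27 further genes of RNA-binding proteins, many of them splicing regulators restricted to neurons or muscle, 15 reached 1 TPM, and the median was 1.42 TPM. Zfp36l1 at 98.1 TPM, Rbm5 at 59.1 TPM, Khdrbs1 at 50.3 TPM and Tial1 at 46.5 TPM were highest. The neuronal genes Elavl3 and Celf6 were lowest at 0.0102 and 0.0138 TPM.

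Each of the 46 listed genes of the core spliceosome reached 1 TPM. The 8 genes of the Sm ring, which holds the spliceosomal RNAs, had a median of 129 TPM, led by Snrpd2 at 236 TPM, with the imprinted Snrpn lowest at 2.97 TPM. The 20 genes of U1 and U2 particles and of splice site recognition had a median of 45.8 TPM. U2af2, which binds the pyrimidine tract, stood at 131 TPM, and Snrnp70, which contacts SR proteins at the start of introns, at 124 TPM. The 18 genes of the later spliceosome had a median of 27.3 TPM, from Prpf19 at 87.8 TPM to Prpf4 at 6.55 TPM. The 15 genes of the exon junction complex and of nonsense-mediated decay, which destroys the unproductive transcripts of splicing regulators, had a median of 20.0 TPM. Magoh at 117 TPM and Eif4a3 at 83.3 TPM were highest, and Smg1 and Smg8 lowest at 8.24 and 4.56 TPM. Hnrnph1 thus stood above every gene of these 4 lists.

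**Figure D5:**
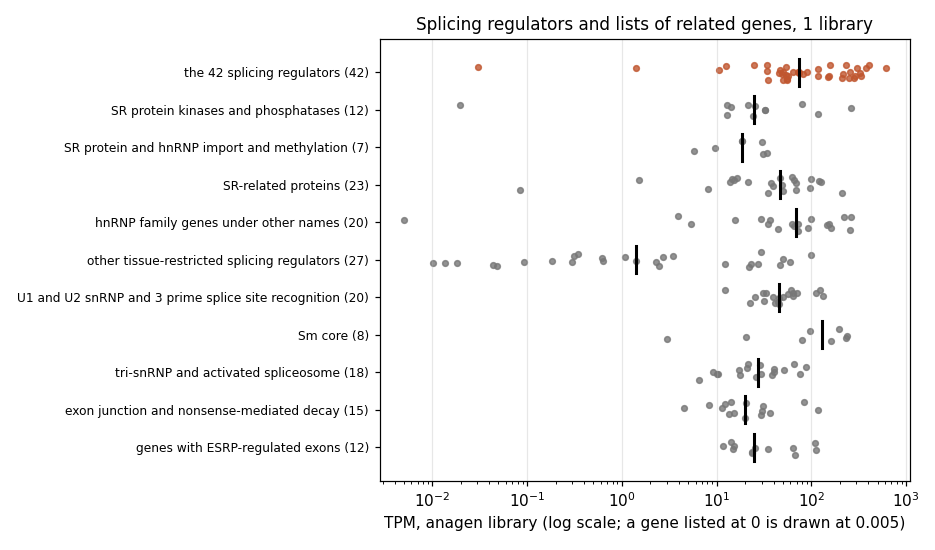
TPM (log scale) of the 42 splicing regulators in the anagen library and of genes in 10 lists named on the axis, 1 point a gene, with the median as a bar and the number of genes in brackets. Ralyl, listed at 0, is drawn at 0.005, and vertical scatter has no meaning. The 42 genes have a median of 73.4 TPM and the Sm core 129 TPM. The list labelled other tissue-restricted splicing regulators, which also holds RNA-binding proteins of other kinds, has a median of 1.42 TPM.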

How the data were processed

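The series holds RNA-seq of sorted hair follicle stem cells, 1 sample in telogen and 1 in anagen. The authors deposited TPM values, per the file headers. The submitters' processing notes name RSEM 1.2.30, Bowtie2 2.2.9 and build mm10. No source used here gives the gene annotation, filters or strand setting. Of 12 columns of per-sample values, the one whose name begins with 1 was taken as the anagen sample, whose title alone has that number, and 11 were not used. The planned comparison of stages was not made.

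The 42661 rows gave 42392 gene IDs, each used once. Symbols came from the table or a gene name table, and types and positions from RefSeq (GRCm38.p6), matched by symbol for 32653 IDs. Levels, medians, counts and ratios were computed with no test. TPM keeps no depth, so no interval or detection limit could be set, and abundant features lower all other values. All members are named. Of lists of at most 10 genes any gene may be named, and of longer lists the 4 highest and 2 lowest genes and relatives of a named gene. Rbm47, set beside Esrp1, falls outside this rule. Some list genes are not reported here. The members and lists were chosen with earlier results of these data known. The motif search was tested only for the GC box, planted in simulated runs of T, which hold no other matches. Gene selection was tested on a short set of written symbols. Other thresholds, scalings, summaries and pseudocounts were tried. The tools were scipy 1.17.1, numpy 2.4.6 and pandas 2.3.3 under Python 3.11.15, with matplotlib 3.10.9 for plots.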

Additional observations from a re-analysis of the deposited data

How the results depend on the processing

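With no replicate, a value was called moved where an alternative changed it by more than 1.5 times, and 6 of 37 alternative values moved. The count does not measure robustness, since some alternatives, such as leaving out Hnrnp genes under 5 TPM, could not change a value. Rescaling TPM without mitochondrial genes and the 50 highest genes raised every remaining value by 1.78-fold, so the medians became 131 TPM for all 42 genes, 161 TPM for the Srsf genes and 239 TPM for the Hnrnp genes. The ratio of Rbfox2 to Rbfox1 was 349.7 as deposited, 81.6 with a pseudocount of 0.1 TPM and 11.2 with 1 TPM. The ratio of Srsf10 to Srsf12, added after seeing the data, was 39.9, against 37.3 and 23.7 with the same pseudocounts. The ratios of Esrp1 to Esrp2, Ptbp1 to Ptbp2 and to Ptbp3, Mbnl1 to Mbnl2 and Tra2b to Tra2a moved by less than 1.5 times, and ratios of other genes were not recomputed. The count of genes at 1 TPM or more was 41, and 40 to 41 at thresholds of 0.1, 5 and 10 TPM. Adding pseudogene rows left the 3 medians as they were, but the rows belong to Srsf3, Hnrnpa1 and Tra2b, none of which sets a median. This alternative therefore could not show an effect of copies. No paired analysis was possible because only 1 library of 1 stage was analysed. With unknown depth, values near 0, such as those of Rbfox1 and Srpk3, cannot be told apart from absence.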
